A study of Mus musculus with 7 samples.

Results

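The genes Cdh1, Epcam, Cdh2, Vim, Zeb1, Zeb2, Snai1, Snai2, Twist1 and Twist2, which mark epithelial or mesenchymal identity, were compared between tumors formed by NM1 KO cells and by KO+NM1 cells. These 10 genes were chosen by symbol from the GENCODE M21 mouse annotation among the 46603 genes counted, and all 10 were found and passed the filter on low counts. NM1, nuclear myosin 1, is an isoform of Myo1c. NM1 KO cells are mouse embryonic fibroblasts (MEFs) that lost NM1 through CRISPR/Cas9 editing. For KO+NM1, an NM1 coding sequence with HA and V5 tags was put back into those KO cells by lentivirus. Both groups therefore lack the endogenous NM1, and no wild-type tumor was in the comparison. The cells were injected into female Balb/c nude mice aged 16 weeks, 5 per group, and per the labels tumors were taken after 30 days. The study's methods place the injection under the skin of the right flank, while its results place it in the mammary pads. Nude mice lack a thymus and most T cells but keep B cells, macrophages and their own epithelia. The sample descriptions have 1 tumor of each kind cut into 4 pieces, each homogenized on its own, and 3 KO and 4 KO+NM1 pieces were sequenced. Replicates are thus pieces, and p-values measure the spread between pieces, with no difference between mice if each kind gave 1 tumor. The KO+NM1 cells were selected with Neomycin and tested as single clones, and a clone cannot be told apart from the return of NM1.

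Epithelial cells hold to each other through E-cadherin, the product of Cdh1, and carry EpCAM on their surface. Fibroblasts and other mesenchymal cells instead make N-cadherin (Cdh2) and the intermediate filament protein vimentin (Vim). In the epithelial-mesenchymal transition (EMT) of development, wound repair and carcinoma, transcription factors of the Snail (Snai1, Snai2), Zeb (Zeb1, Zeb2) and Twist (Twist1, Twist2) families repress epithelial genes, Cdh1 first among them, and favor mesenchymal ones. MEFs are themselves mesenchymal cells. Counts of a whole piece do not separate injected from host cells, and fewer cells of a type cannot be told apart from less RNA per cell.

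Snail and Zeb proteins bind E-boxes of the form CACCTG, which reads CAGGTG on the other strand. RefSeq start sites on GRCm38.p6 were used for 6 of the 10 genes, Epcam, Vim, Zeb2, Snai1, Twist1 and Twist2. The promoters of Cdh1, Cdh2, Zeb1 and Snai2 were not searched, so nothing is said of their E-boxes. The 250 bases before the start site held this E-box in 17.2% of the 32851 promoters of the same table, and 2.06% held at least 2. Among the 6 genes it was found before Epcam, at 2 places, and before Snai1, at 1 place, and these promoters are shown since Epcam had the largest change of the 10 genes. The Epcam promoter lies at chr17:87635729-87635978 on the plus strand and that of Snai1 at chr2:167537945-167538194 on the plus strand. Capitals mark the E-boxes, whose first base was 187 and 19 bases before the Epcam start site and 126 bases before that of Snai1.
Epcam promoter: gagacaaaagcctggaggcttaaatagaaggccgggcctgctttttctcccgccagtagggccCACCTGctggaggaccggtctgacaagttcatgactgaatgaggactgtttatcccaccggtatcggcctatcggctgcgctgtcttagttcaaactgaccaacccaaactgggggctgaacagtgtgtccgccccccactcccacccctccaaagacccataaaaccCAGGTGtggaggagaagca
Snai1 promoter: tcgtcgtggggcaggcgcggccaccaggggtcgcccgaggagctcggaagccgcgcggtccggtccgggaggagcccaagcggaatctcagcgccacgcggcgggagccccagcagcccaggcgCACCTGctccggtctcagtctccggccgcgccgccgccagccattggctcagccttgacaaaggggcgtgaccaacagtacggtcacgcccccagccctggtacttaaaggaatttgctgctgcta
None of the windows before Vim, Zeb2, Twist1 and Twist2 held these letters. A match describes the letters only and says nothing of binding in these tumors.

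Reads counted on genes numbered 24088309 to 28326568 per piece. The correlation of log2 CPM, taken over genes and so not over replicates, was 0.974 to 0.984 between KO pieces and 0.983 to 0.991 among KO+NM1 pieces 02, 03 and 04, but 0.86 to 0.866 between KO+NM1 piece 01 and these. KO+NM1 piece 01 also held 4177 CPM of 6 B and plasma cell markers in sum, against 3.33 to 42.3 CPM in the other 6 pieces. CPM is the usual depth-corrected count, here with library sizes adjusted by TMM. Myo1c, the gene that holds NM1, reached 289 to 312 CPM in the KO pieces and 381 to 437 CPM in the KO+NM1 pieces (log2 fold change -0.43, standard error 0.13, adjusted p = 0.0311 from edgeR), and gene counts do not separate NM1 from the other isoforms.

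The 10 genes did not move as 1 block. Cdh1, Epcam and Snai2 fell and Cdh2 and Vim rose in the KO pieces, where a change means an adjusted p under 0.05 from edgeR and at least 2-fold. That is 5 of 10 genes, while 37.3% of the 16887 genes tested were called in either direction, 17.1% of them higher and 20.3% lower, so the share among the identity genes lay near a high background. Zeb1 was higher by its adjusted p but by less than 2-fold, which makes 6 of 10 by adjusted p alone, 3 higher and 3 lower, against 50.2% of all genes, 25.7% higher and 24.5% lower, and Zeb2, Snai1, Twist1 and Twist2 did not pass. The median log2 fold change, KO minus KO+NM1, was -0.62 for the 10 genes and -0.0017 for all genes tested. Without KO+NM1 piece 01 the median of the 10 genes was -0.997, and 1 of them was called higher and 5 lower. KO and KO+NM1 pieces were fully separate for Epcam, Cdh2, Vim, Zeb1 and Snai2, again 5 of 10, against 57% of all genes tested. In 3 of them the KO pieces were the higher (30.5% of all genes) and in 2 the lower (26.4%). For these 5 genes a two-sided exact permutation test over the 35 splits of the pieces gave p = 0.0286, the smallest it can give. That value follows almost directly from the full separation by which these genes were picked, so it adds nothing to it. The same exact permutation test gave p = 0.0857 for Cdh1, 0.143 for Twist2, 0.257 for Zeb2, 0.371 for Twist1 and 1 for Snai1.

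**Figure D1:**
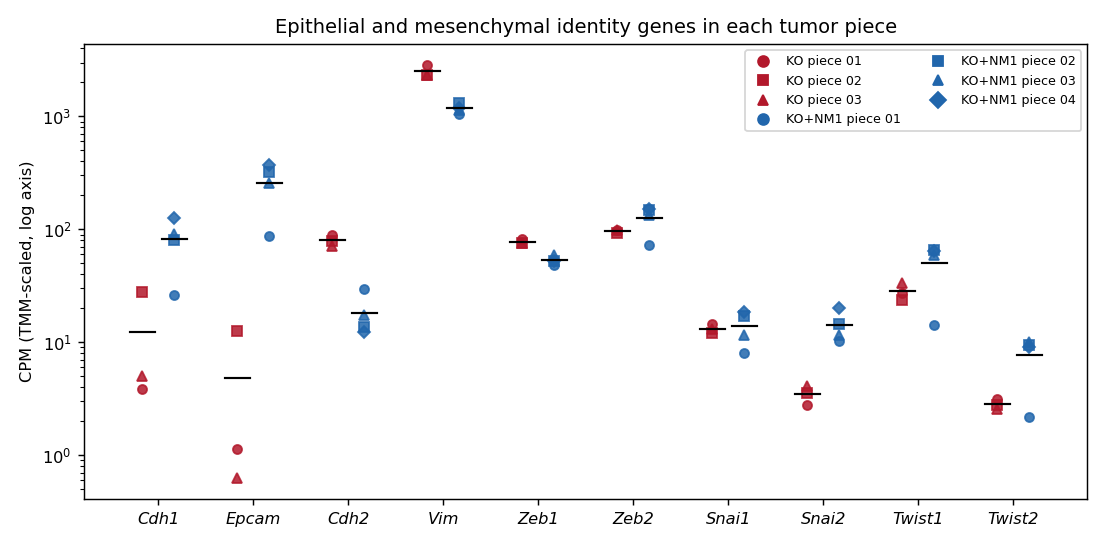
CPM of each of the 10 genes (log axis) in every KO piece (red) and KO+NM1 piece (blue), with a symbol for each piece number and a black line at the group mean. KO piece 02 stands above the other KO pieces for Cdh1 and Epcam. KO+NM1 piece 01 stands below the other KO+NM1 pieces for every gene other than Cdh2.

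Cdh1 encodes E-cadherin, the adhesion protein of epithelial adherens junctions. It is ENSMUSG00000000303 and lies on the plus strand of chromosome 8 (GRCm38), from 106603351 to 106670246. Cdh1 stood at 3.89, 28.01 and 5.04 CPM in KO pieces 01, 02 and 03 and at 26.2, 80.7, 91.9 and 127 CPM in KO+NM1 pieces 01 to 04. KO piece 02 was the exception in the KO tumor and lay just above KO+NM1 piece 01, so the groups overlapped. The means were 12.3 ± 13.6 CPM (SD, n = 3) and 81.4 ± 41.7 CPM (SD, n = 4), a log2 fold change of -2.73 ± 0.79 (SE, edgeR adjusted p = 0.035). The adjusted p of Cdh1 did not hold without any of 5 single pieces. It was 0.087 without KO piece 01 and 0.0954 without KO piece 03, and 0.0664, 0.0673 and 0.0754 without KO+NM1 pieces 02, 03 and 04, all from edgeR. Without KO piece 02 the log2 fold change of Cdh1 was -4.31 (adjusted p = 0.0076 from edgeR), and without KO+NM1 piece 01 it was -3.14 (adjusted p = 0.00754 from edgeR).

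Epcam encodes EpCAM, a surface adhesion protein of most simple epithelia. Epcam, ENSMUSG00000045394, lies on chromosome 17 from 87635979 to 87651129 on the plus strand, next to the promoter shown above. It had the largest change of the 10 genes. Epcam stood at 1.13, 12.6 and 0.626 CPM in KO pieces 01 to 03 and at 88.0, 323, 255 and 370.1 CPM in KO+NM1 pieces 01 to 04. The groups did not overlap, and KO piece 02 was again the highest of its tumor. The mean was 54.1 times as high in the KO+NM1 pieces, at 259 ± 123 CPM (SD, n = 4) against 4.79 ± 6.77 CPM (SD, n = 3). The log2 fold change was -5.76 (SE 1.00, edgeR adjusted p = 0.00901), and -8.32 without KO piece 02 (adjusted p = 0.00328 from edgeR). Epcam and Cdh1 did not keep 1 ratio. Per kilobase of exon, Epcam reached 0.259 to 0.937 times the level of Cdh1 in the KO pieces and 5.79 to 8.33 times in the KO+NM1 pieces, and these ranges did not overlap.

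Cdh2 encodes N-cadherin, the cadherin of fibroblasts, neural cells and muscle cells, and it moved opposite to Cdh1. Cdh2, ENSMUSG00000024304, lies on chromosome 18 from 16588877 to 16809246 on the minus strand. It stood at 89.5, 79.3 and 70.9 CPM in KO pieces 01 to 03 and at 29.5, 13.8, 17.5 and 12.2 CPM in KO+NM1 pieces 01 to 04. The groups did not overlap, and KO+NM1 piece 01 lay nearest to the KO pieces. The log2 fold change of Cdh2 was 2.13 (SE 0.31, edgeR adjusted p = 0.00189), and Cdh2 passed in all 16 other settings tried, with an adjusted p of at most 0.0127. Since skeletal muscle also makes N-cadherin, its markers are set beside it below.

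Read per length, the pair of cadherins changed places between the tumors. RPKM are CPM per kilobase of merged exons. The RPKM of Cdh2 was 13.03, 1.60 and 7.97 times that of Cdh1 in KO pieces 01 to 03. In KO+NM1 pieces 01 to 04 the RPKM of Cdh1 was instead 1.57, 10.3, 9.25 and 18.3 times that of Cdh2. Cdh2 was the higher of the pair in every KO piece and Cdh1 in every KO+NM1 piece, with KO piece 02 and KO+NM1 piece 01 nearest to equal levels. This ratio is a description of 2 of the 10 genes and was given no test.

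**Figure D2:**
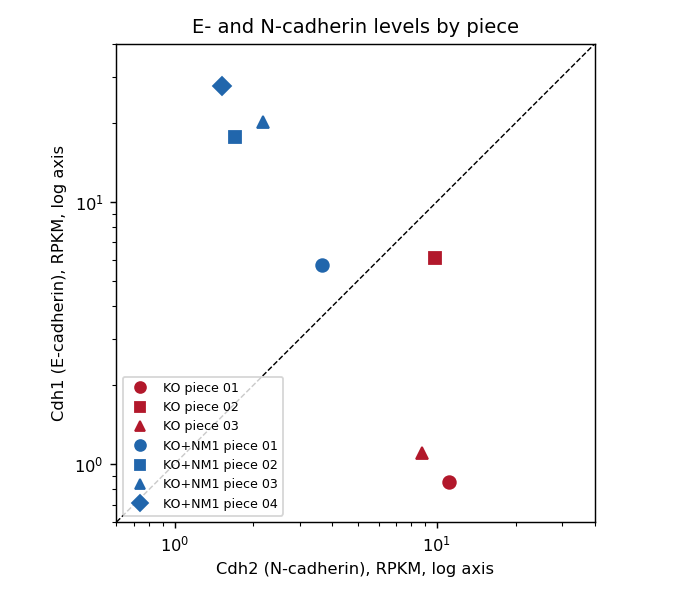
RPKM of Cdh1 against RPKM of Cdh2 in each piece, both on log axes, with the dashed line at equal levels. The 3 KO pieces (red) lie below the line and the 4 KO+NM1 pieces (blue) above it, and KO piece 02 and KO+NM1 piece 01 lie closest to it.

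Vim encodes vimentin, the main intermediate filament protein of mesenchymal cells, and was the highest of the 10 genes in every piece. Vim, ENSMUSG00000026728, lies on chromosome 2 from 13573927 to 13582826 on the plus strand. Its level was 2871, 2316 and 2316 CPM in KO pieces 01 to 03 and 1045, 1325, 1140.1 and 1192 CPM in KO+NM1 pieces 01 to 04. All KO pieces lay above all KO+NM1 pieces, and both groups were narrow. The log2 fold change of 1.09 ± 0.21 (SE, edgeR adjusted p = 0.00502) lay just past 2-fold. Its size ranged from 0.87 to 1.28 over 16 other settings, so the 2-fold call turned on the scaling, with 0.99 under the size factors of DESeq2 and 0.93 under upper-quartile scaling. With those scalings 1 of the 10 genes was called higher and 4 lower, in place of 2 and 3. Vim also stayed under 2-fold without KO piece 01 (0.87) and without KO+NM1 piece 01 (0.91).

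Most genes on a list of other intermediate filament proteins and of proteins that tie such filaments to the cell also rose. Of 7 such genes 5 rose (Des, Nes, Prph, Synm and Plec) and 0 fell, against 17.1% of all genes higher, with a median log2 fold change of 2.57. Gfap (-1.15, edgeR adjusted p = 0.224) and Lmna (0.96, edgeR adjusted p = 0.0693) did not pass. Des, desmin of muscle filaments, went from 71.2 CPM on average in the KO+NM1 pieces to 879 CPM in the KO pieces (log2 fold change 3.63, standard error 0.89, adjusted p = 0.0168 from edgeR). Nes, nestin, a partner of vimentin in progenitor cells, went from 45.0 to 283 CPM (log2 fold change 2.66, standard error 0.42, adjusted p = 0.00254 from edgeR). Prph, peripherin, which is better known from peripheral neurons, rose with a log2 fold change of 3.67 ± 1.14 (SE, edgeR adjusted p = 0.0375). Des stood at 166 CPM in KO+NM1 piece 01 and Synm at 34.4 CPM in KO+NM1 piece 03, both above KO piece 01. The groups of both genes thus overlapped. Within the KO tumor Des stood at 114 CPM in piece 01 but at 1513 and 1009 CPM in pieces 02 and 03, the same order as the muscle markers. Synm, the filament protein synemin, had that order too, at 33.6, 243 and 215 CPM, while Nes was even at 268 to 299 CPM.

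Zeb1 and Zeb2 encode a pair of large zinc finger repressors of epithelial genes. Zeb1, ENSMUSG00000024238, lies on chromosome 18 from 5591860 to 5775467 on the plus strand. Zeb1 stood at 82.0, 76.1 and 75.5 CPM in KO pieces 01 to 03 and at 48.3, 52.0, 59.7 and 52.4 CPM in KO+NM1 pieces 01 to 04, the most even of the 10 genes. Its groups did not overlap, and the log2 fold change was 0.55 (SE 0.12, edgeR adjusted p = 0.00837). That adjusted p rose to 0.0869, 0.072 and 0.0705 without KO pieces 01, 02 and 03. Zeb2, ENSMUSG00000026872, lies on chromosome 2 from 44983632 to 45117395 on the minus strand. It stood at 98.6, 92.2 and 99.3 CPM in the KO pieces and at 73.4, 149, 133 and 152 CPM in the KO+NM1 pieces. KO+NM1 piece 01 lay below the KO pieces and the other KO+NM1 pieces above them, and the log2 fold change was -0.39 (SE 0.26, edgeR adjusted p = 0.243). Without KO+NM1 piece 01 it was -0.71 (adjusted p = 0.00036 from edgeR). In RPKM, Zeb2 reached 0.62 to 0.677 times the level of Zeb1 in the KO pieces and 0.783 to 1.49 times in the KO+NM1 pieces. Macrophages and other immune cells also make Zeb2. Of 8 macrophage markers 6 were called higher in the KO pieces, against 17.1% of all genes tested. The part of such cells in the level of Zeb2 was not tested.

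Snai1 and Snai2 encode Snail and Slug, zinc finger repressors of Cdh1. Snai2, ENSMUSG00000022676, on chromosome 16 from 14705852 to 14709385 on the plus strand, was the 1 EMT factor of the 6 that was called. It stood at 2.76, 3.54 and 4.12 CPM in KO pieces 01 to 03 and at 10.2, 14.7, 11.5 and 20.3 CPM in KO+NM1 pieces 01 to 04. All 3 KO pieces were lower than the lowest KO+NM1 piece, so this repressor of E-cadherin was lower where Cdh1 was lower. The log2 fold change was -2.03 (SE 0.30, edgeR adjusted p = 0.00242) and passed in all 16 other settings. Snai1, ENSMUSG00000042821, on chromosome 2 from 167538195 to 167542814 on the plus strand, stood at 14.6, 12.0 and 13.1 CPM in the KO pieces and 7.98, 17.2, 11.7 and 18.6 CPM in the KO+NM1 pieces. The KO pieces fell inside the range of the KO+NM1 pieces, and the log2 fold change was -0.07 (SE 0.32, edgeR adjusted p = 0.873). In RPKM, Snai1 was 3.95 to 6.59 times Snai2 in the KO pieces and 0.972 to 1.46 times Snai2 in the KO+NM1 pieces.

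Twist1 and Twist2 encode close relatives among the basic helix-loop-helix factors, both made in mesenchyme. Twist1, ENSMUSG00000035799, lies on chromosome 12 from 33957671 to 33959829 on the plus strand. It stood at 27.6, 23.7 and 33.3 CPM in KO pieces 01 to 03 and at 14.3, 66.1, 58.9 and 64.0 CPM in KO+NM1 pieces 01 to 04. The KO pieces lay between KO+NM1 piece 01 and the other 3, and the log2 fold change was -0.85 (SE 0.48, edgeR adjusted p = 0.19). Twist2, ENSMUSG00000007805, on chromosome 1 from 91801461 to 91848028 on the plus strand, had the same order of pieces. It stood at 3.16, 2.81 and 2.57 CPM in the KO pieces and at 2.19, 9.51, 10.0 and 9.15 CPM in the KO+NM1 ones, with a log2 fold change of -1.44 ± 0.50 (SE, edgeR adjusted p = 0.0557). Without KO+NM1 piece 01 both passed, with -1.29 for Twist1 (adjusted p = 0.000157 from edgeR) and -1.87 for Twist2 (adjusted p = 0.000117 from edgeR). Twist2 shares 1477 exonic bases with Gm29100, an antisense gene counted at 9 to 39 reads per piece, and Zeb1 and Zeb2 also overlap antisense genes. The strand option of the counting is not given in the sources used here, so reads of such overlapping pairs may not be told apart.

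**Figure D3:**
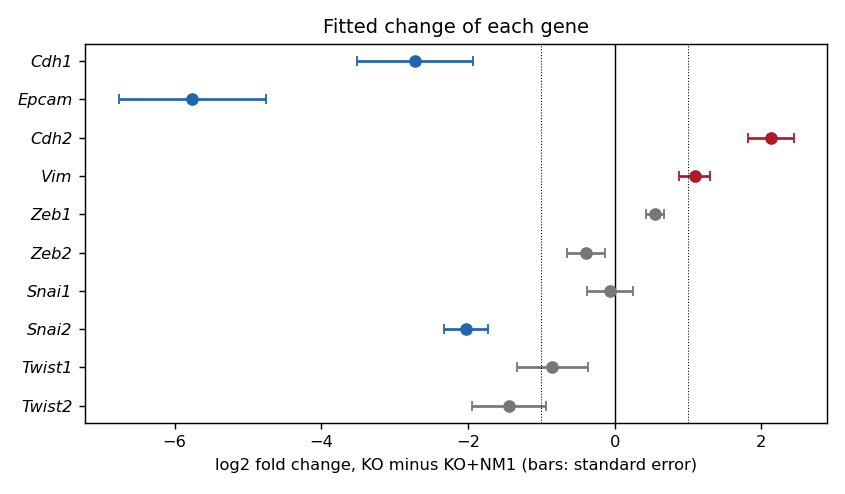
Fitted log2 fold change of each of the 10 genes, KO minus KO+NM1, with bars of 1 standard error and dotted lines at a 2-fold change. Cdh2 and Vim (red) were called higher in the KO pieces, Epcam, Cdh1 and Snai2 (blue) lower, and the other 5 genes (gray) were not called.

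The order of the levels in RPKM also differed between the tumors. In the KO pieces it was Vim at 527 RPKM on average, Twist1 at 17.3, Cdh2 at 9.90, Snai1 at 8.17, Zeb1 at 7.58, Zeb2 at 4.85, Cdh1 at 2.69, Epcam at 2.18, Snai2 at 1.72 and Twist2 at 0.897. The ranges of neighbors overlapped between Cdh2, Snai1 and Zeb1 and from Zeb2 down to Snai2. In the KO+NM1 pieces Vim led at 248 RPKM and Epcam came second at 118, followed by Twist1 at 31.2, Cdh1 at 17.8, Snai1 at 8.56, Snai2 at 7.02, Zeb2 at 6.36, Zeb1 at 5.17, Twist2 at 2.43 and Cdh2 at 2.26. There, each pair of neighbors overlapped other than Vim with Epcam and Zeb1 with Twist2. Vim stayed first in both tumors, while Epcam moved from place 8 to place 2 and Cdh2 from place 3 to place 10. Without KO piece 02 the KO means of Epcam and Cdh1 were 0.40 and 0.977 RPKM, which put Epcam below Twist2 at 0.903 RPKM.

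Other genes of epithelial identity were lower in the KO pieces along with Cdh1 and Epcam. Of 30 genes of tight junctions, desmosomes, keratins and epithelial transcription factors, 16 fell and 0 rose, against 20.3% of all genes lower, and the median log2 fold change was -3.52. The desmosome genes Dsp (0.68, edgeR adjusted p = 0.664) and Pkp3 (-0.80, edgeR adjusted p = 0.323) did not pass. Nor did Evpl (-0.37), Ppl (-0.57) and the transcription factor gene Ovol1 (1.13, edgeR adjusted p = 0.276). Dsp was highest of all pieces in KO piece 02, at 182 CPM. The largest falls were those of Krt19, a keratin of simple epithelia, from 314 to 0.507 CPM on average (log2 fold change -9.27, standard error 0.56, adjusted p = 0.000375 from edgeR), Krt7, another such keratin, with -8.95, and Cldn3, a tight junction claudin, with -8.60. Grhl2, a transcription factor that holds the epithelial state, fell from 19.03 to 0.748 CPM on average (log2 fold change -4.66, adjusted p = 0.0187 from edgeR). Esrp1, a splicing factor of epithelia, stood at 0.599, 14.6 and 0.033 CPM in the KO pieces and at 9.91 to 46.0 CPM in the KO+NM1 pieces, without passing the test (adjusted p = 0.197 from edgeR). KO piece 02 was the highest KO piece for 27 of the 30 genes, and KO+NM1 piece 01 was the lowest KO+NM1 piece for 28 of them. Without KO piece 02, 27 of 30 genes fell and the median was -6.32, and the 3 that did not pass were Cgn, Krt18 and Ovol1, named here after their values were seen. Without KO+NM1 piece 01, 19 fell.

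The mesenchymal genes did not mirror this. Of 32 genes of matrix, contraction and fibroblast identity, 8 rose and 7 fell in the KO pieces, near the background of 17.1% and 20.3%, and the median log2 fold change was 0.25 (-0.12 without KO+NM1 piece 01). Rising with Vim and Cdh2 were Tnc, the matrix protein tenascin C, with 2.20 (SE 0.26, edgeR adjusted p = 0.000979), Axl, a receptor tyrosine kinase, with 1.94, and Itga5, the fibronectin receptor subunit, with 1.75. The largest falls were those of Acta2 and Tagln, contractile genes of smooth muscle and myofibroblasts, with -3.76 and -3.58, and of Dcn, the matrix proteoglycan decorin, with -2.72. Fn1, fibronectin, a classic EMT target, stood at 358 to 702 CPM in the KO pieces and 182 to 1239 CPM in the KO+NM1 pieces (log2 fold change -0.30, adjusted p = 0.698 from edgeR). KO+NM1 piece 01 was the lowest KO+NM1 piece for 29 of the 32 genes.

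**Figure D4:**
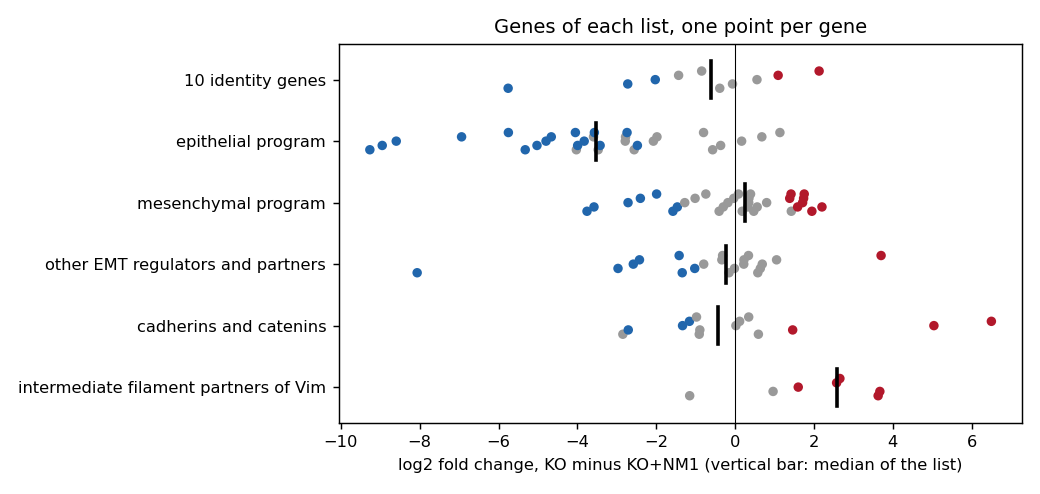
Fitted log2 fold changes, KO minus KO+NM1, of the 10 identity genes and of the tested genes of 5 related lists, 1 point per gene, with red for called higher, blue for called lower, gray for not called and a black bar at the median. The epithelial genes spread far to the left of 0 with a median of -3.52, while the mesenchymal genes lie on both sides of 0 with a median of 0.25.

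Among 20 other EMT regulators and partners of the factors above, 1 rose and 7 fell, against 17.1% of all genes higher and 20.3% lower. Klf8, a Krüppel-like factor that represses Cdh1, rose from 1.22 to 16.0 CPM on average (log2 fold change 3.70, standard error 0.58, adjusted p = 0.00276 from edgeR). Id4, Id3 and Id1, inhibitors that bind the E proteins with which Twist factors pair, fell with -2.97, -2.58 and -2.43. Tcf4, 1 of those E proteins, was lower as well with -1.34, while the corepressors Ctbp1 (-0.019) and Ctbp2 (0.22) did not pass. Tcf12, another E protein, was higher by its adjusted p but by less than 2-fold (0.57, edgeR adjusted p = 0.0162). The E protein gene Tcf3 stood at 223 to 270.4 CPM in the KO pieces, at 312 CPM in KO+NM1 piece 01 and at 89.9 to 117 CPM in the other KO+NM1 pieces, and did not pass (0.64, edgeR adjusted p = 0.266). Prrx1, a mesenchymal homeobox factor, fell with -1.03 (adjusted p = 0.017 from edgeR). The median log2 fold change of this list was -0.24, and -0.72 without KO+NM1 piece 01, when 2 rose and 7 fell.

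A list of 14 other cadherins and catenins also held Vcl and Afdn, which are neither. Of these 14 genes 3 rose and 3 fell, near the 17.1% and 20.3% of all genes, with a median log2 fold change of -0.44. This balance rested on KO+NM1 piece 01, without which 3 rose and 7 fell and the median was -1.29. Cdh5, VE-cadherin of blood vessels, fell with -2.71 (SE 0.26, edgeR adjusted p = 0.000685). Cdh13, T-cadherin, fell with -1.16 and Jup, plakoglobin of desmosomes and adherens junctions, with -1.34. Vcl, vinculin, which ties cadherins and integrins to actin, rose with 1.46. Cdh15, M-cadherin of muscle precursors, also rose, from at most 0.182 CPM in the KO+NM1 pieces to 1.36, 9.09 and 6.99 CPM in KO pieces 01 to 03, as did Cdh6, K-cadherin, from at most 0.0821 CPM to 1.32 to 2.93 CPM. Ctnnb1 and Ctnna1, the β- and α-catenins that carry both E- and N-cadherin, had log2 fold changes of 0.11 and 0.018 (adjusted p = 0.634 and 0.946 from edgeR). Ctnnb1 stood at 371 to 542 CPM in the 7 pieces. Ctnnd1, p120-catenin, which also binds both cadherins, was lower by its adjusted p but by less than 2-fold (log2 fold change -0.98, edgeR adjusted p = 0.0264).

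Markers of several cell types moved with these genes. For comparison, 17.1% of all genes tested were called higher and 20.3% lower. Of 10 mammary epithelium markers 9 were tested, and 4 fell (Krt8, Elf5, Csn3 and Lalba) and 0 rose. The summed level of all 10 was 23.9 to 610 CPM in the KO pieces and 421 to 1999 CPM in the KO+NM1 pieces. Wap, a milk protein, was at 0 in all KO pieces and in KO+NM1 pieces 01 and 03, whereas Csn3 and Lalba, milk protein genes, stood at 154 to 624 CPM and 29.8 to 125 CPM in the KO+NM1 pieces and at most at 2.08 and 0.363 CPM in the KO pieces. Of 10 keratinocyte markers 8 were tested, and 1 rose (Lor) and 0 fell. The sums of all 10 were 33.0, 1374 and 8.97 CPM in KO pieces 01 to 03 and 154 to 468 CPM in the KO+NM1 pieces. Krt5, Krt14 and Trp63 are in the mammary and the keratinocyte list alike. In KO piece 02 they stood at 249, 284 and 21.4 CPM, most of its mammary sum of 610 CPM. Csn3, Lalba and Elf5 stood there at 2.08, 0.347 and 2.26 CPM. Krt1, a keratin of cornified skin, stood at 256 CPM in KO piece 02 and at most at 0.599 CPM in every other piece, and 5 of the markers, Krt5 among them, were at 0 in KO piece 03. KO piece 02, the KO piece with the most Cdh1 and Epcam, was thus the highest of all pieces in keratinocyte markers. The part of either epithelium in the levels of Cdh1 and Epcam was not tested.

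**Figure D5:**
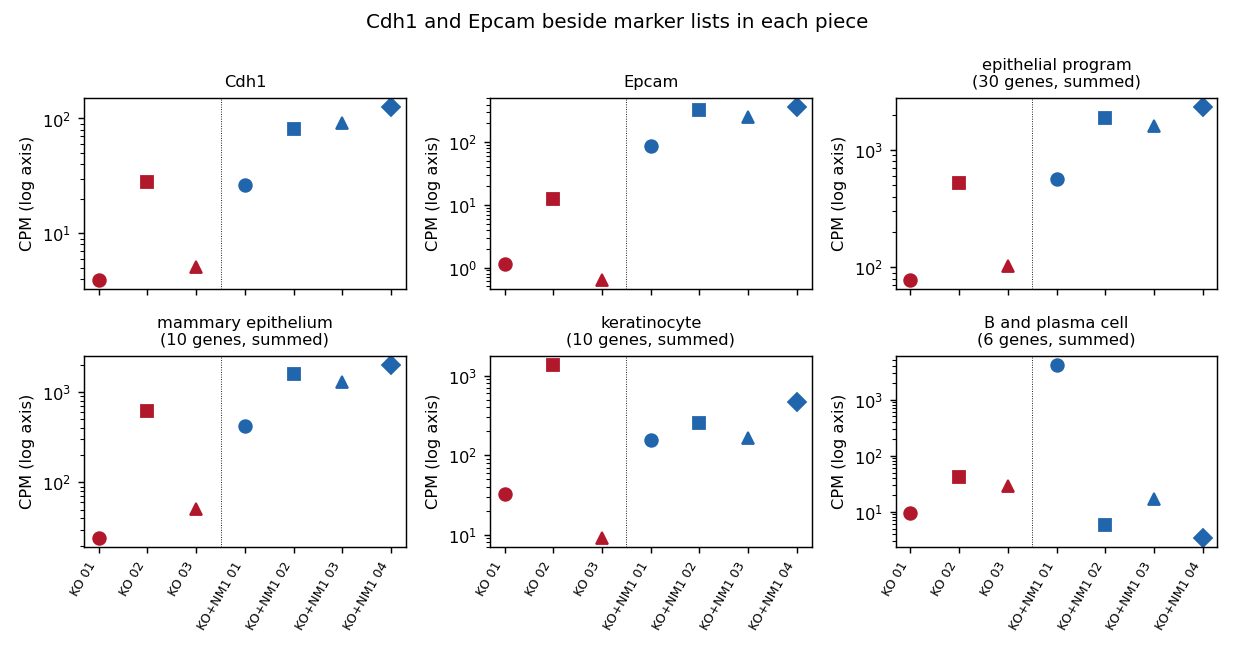
CPM of Cdh1 and Epcam and summed CPM of 4 lists in each piece (log axes), with KO pieces in red left of the dotted line and KO+NM1 pieces in blue right of it. The mammary and keratinocyte lists have Krt5, Krt14 and Trp63 in common. Cdh1, Epcam, the epithelial list and the mammary list share the order of KO piece 02 above the other KO pieces and KO+NM1 piece 01 below the other KO+NM1 pieces, keratinocyte markers peak in KO piece 02 at 1374 CPM, and B and plasma cell markers reach 4177 CPM in KO+NM1 piece 01.

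Other lists bear on the mesenchymal genes, again beside 17.1% of all genes tested called higher and 20.3% lower. Skeletal muscle markers summed to 1723, 15673 and 12307 CPM in KO pieces 01 to 03 and to 3.39 to 22.2 CPM in KO+NM1 pieces. Cacna1s, Myod1, Myog and Pax7 were at 0 in all KO+NM1 pieces. Of the 9 muscle markers 7 were tested, and all 7 rose. Cdh2 stood at 89.5, 79.3 and 70.9 CPM in KO pieces 01 to 03 and at 12.2 to 29.5 CPM in the KO+NM1 pieces. Of 8 fibroblast markers 4 fell (Pdgfra, Pdgfrb, Dcn and Lum) and 0 rose, none was at 0, and the sums of 7187 to 12974 CPM and 2843 to 12990.3 CPM overlapped, so fibroblast transcripts were present in both tumors. All 8 are also among the 32 mesenchymal genes above, so these 4 falls are not separate from those counted there. White adipocyte markers were higher in the KO+NM1 pieces, at 4006 to 30174 against 47.5 to 201 CPM, and all 8 fell in the KO pieces, where Lep was at 0 in KO piece 01. All 8 endothelial markers (218 to 248 against 1145 to 1692 CPM) and 5 of 7 pericyte and smooth muscle markers (130 to 189 against 592 to 1254 CPM) fell, and 6 of 8 Schwann cell markers did so (48.1 to 82.6 against 176 to 352 CPM), with no marker at 0. Macrophage markers summed to 3093 to 3536 CPM in the KO pieces and 662 to 2479 CPM in the KO+NM1 pieces, with 6 of 8 higher, 1 lower (Cd14) and none at 0. None of the 6 B and plasma cell markers passed, and none was at 0. Several of these cell types make vimentin themselves, and their part in the levels of Vim, Cdh2, Zeb1, Zeb2, Snai2, Twist1 and Twist2 was not tested.

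The genes most like Cdh1 and Cdh2 across the 7 pieces were found by the root mean square difference of log2 CPM after centering each gene, among 12281 genes with at least 5 CPM on average. Closest to Cdh1 were Srcin1 (0.339), Hr (0.346), Lsr (0.379), Celsr2 (0.41) and Sdr42e1 (0.42). Among the closest to Cdh2 were Rpa1 (0.144), Heatr1 (0.147), Nup93 (0.154) and Rangap1 (0.154). These distances for Cdh2, in log2 units, were smaller than those for Cdh1.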

How the data were processed

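RNA-seq was made from 3 KO and 4 KO+NM1 tumor pieces, grouped by their titles. Per the submitters' processing notes and the study's methods, trimming used Trimmomatic 0.36, alignment to GRCm38 used HISAT2 2.0.4 with SAMtools 0.1.19, and counting used HTSeq-count. The authors deposited whole-number counts, and these values are raw read counts per Ensembl gene, without normalization. The annotation release and strand option are not given in the sources used here. Symbols, coordinates and exon lengths came from GENCODE M21, which named 46005 of 46603 genes.

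Counts were analysed in R 4.3.3. Genes kept by filterByExpr of edgeR 4.0.16 (minimum count 10) were scaled by TMM and compared, KO minus KO+NM1, by the quasi-likelihood test with Benjamini-Hochberg adjustment over the 16887 genes kept. A gene was called at an adjusted p under 0.05 and at least 2-fold, as in the study's methods. The 10 genes and all lists were chosen with earlier results of these data known. Named from each list were the 3 largest rises and 3 largest falls past both thresholds with at least 5 CPM on average, and the 5 genes nearest to Cdh1 and Cdh2 (1 of them is not reported here), and other genes were named after their values were seen. Chi-square per degree of freedom between pieces of 1 tumor was 35.2 to 687, so no library repeated another. A count of 0 allows up to 3 counts, or 0.106 to 0.125 CPM of unscaled library size, which covers counting error only. Alternatives were other scalings, filters on low counts, DESeq2 1.42.0, voom of limma 3.58.1, a block and each piece left out. The steps were tested on simulated data.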

Additional observations from a re-analysis of the deposited data

Results flagged for a closer look

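In 25 values compared across the 4 KO+NM1 pieces, the lowest or highest piece was set against its nearest neighbor (the distance between them over the full range, log2 scale), and 4 of them passed Dixon's 95% critical value, each with KO+NM1 piece 01 as the lowest. Chance gives about 1 in 20 such values, and the 25 are not independent. The ratio was 0.925 for Twist1 and 0.941 for Twist2, which stood at 14.3 and 2.19 CPM in that piece and at 58.9 to 66.1 and 9.15 to 10.0 CPM in the other 3. It was 0.929 for the summed cadherins and catenins, at 1101 CPM against 1892 to 1973 CPM, and 0.902 for the summed pericyte and smooth muscle markers, at 592 CPM against 1164 to 1254 CPM.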

How the results depend on the processing

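The number of the 10 genes called was 4 to 6 over the other settings, apart from leaving out single pieces, which gave 3 to 6, the lowest without KO piece 01. Epcam, Cdh2 and Snai2 kept their direction and their adjusted p under 0.05 in all 16 settings. Snai1 turned positive with library size alone (0.12), with the block (0.17) and without KO+NM1 piece 02 (0.033) or 04 (0.087), against -0.39 without piece 01, and 0 of its 16 values passed. Single pieces left out gave 14 to 27 called epithelial genes (27 without KO piece 02). They gave 3 to 10 on the list of cadherins and catenins (3 without KO piece 01 or 03, 10 without KO+NM1 piece 01). On the intermediate filament list they gave 3 to 5 (3 without KO piece 02 or 03 or KO+NM1 piece 02). Requiring 10 counts in every piece left 6 called epithelial genes, since genes low in 1 tumor were then not tested. With voom 10 cadherins and catenins were called, and the cause was not tested. The log2 Cdh1 to Cdh2 ratio differed by -5.32 between the tumors. Piece numbers did not pair the pieces, whose deviations had correlations of -0.0193 to 0.0966 at the same number. With the piece number as a replicate block 4 of the 10 genes were called, and 3 genes of the intermediate filament list. Vim then had an edgeR adjusted p of 0.0619 and Zeb1 of 0.0728. Size factors moved the median of all genes from -0.0017 to -0.10, upper-quartile scaling to -0.16, DESeq2 to -0.15 and library size alone to 0.17. Genes of few counts in 1 tumor, such as Krt7 with at most 7 in a KO piece, have folds that the depth bounds only loosely.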
